A study of Homo sapiens with 12 samples.

Results

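Zinc handling genes were followed in the human prostate cancer cell lines LnCaP and 22RV1, each exposed to nicotine or left untreated. The members were 10 genes chosen by name: the zinc exporters SLC30A1, SLC30A4 and SLC30A9, the zinc importers SLC39A6, SLC39A7 and SLC39A8, the metallothioneins MT1X, MT2A and MT1F, and the zinc-sensing transcription factor MTF1. Every probe set annotated to them was taken, which gave 17 of the 22277 probe sets on the array, for 10 of the 11963 genes it names. Expression was measured on 12 Affymetrix arrays, 3 in each of 4 groups: nicotine-treated LnCaP, untreated LnCaP, nicotine-treated 22RV1 and untreated 22RV1. Treated cells received nicotine tartrate at 100 µM for 24 h, and the labels name no vehicle for the untreated cells. LnCaP is an androgen-sensitive line derived from a lymph node metastasis, and 22RV1 is a line derived from a xenograft tumour. Each is a single established line. The labels do not say whether the 3 replicates were separate cultures, so a p-value here may reflect technical spread alone. All values are log2 expression values as the authors deposited them, and a difference of 1 is a doubling. A probe set is called when its limma p-value, adjusted over all probe sets of a contrast by the Benjamini-Hochberg method, lies under 0.05.

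Free zinc in the cytosol is kept low by proteins with complementary jobs. Transporters of the SLC39 (ZIP) family carry zinc into the cytosol from outside or from organelles, those of the SLC30 (ZnT) family carry it out of the cytosol, and metallothioneins are small cysteine-rich proteins that bind it. When cytosolic zinc rises, MTF1 binds metal response elements and switches on metallothionein genes and SLC30A1. Healthy prostate epithelium is known for holding much zinc, and prostate cancer cells usually hold far less.

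The promoters below are shown because MT1X, MT2A and SLC30A1, which varied widely between arrays, are textbook MTF1 targets. Each is the RefSeq window from 250 bases before to 50 after the start of the gene, from GRCh38.p14, written 5′ to 3′ on the strand of the gene. Capitals mark matches to the core of the metal response element, TGCACNC or TGCGCNC, or on the opposite strand GNGTGCA or GNGCGCA; no match overlapped another. MT2A lies at chr16:56608334-56608633 on the plus strand and MT1X at chr16:56682220-56682519 on the plus strand. SLC30A1 lies at chr1:211579112-211579411 on the minus strand.
MT2A: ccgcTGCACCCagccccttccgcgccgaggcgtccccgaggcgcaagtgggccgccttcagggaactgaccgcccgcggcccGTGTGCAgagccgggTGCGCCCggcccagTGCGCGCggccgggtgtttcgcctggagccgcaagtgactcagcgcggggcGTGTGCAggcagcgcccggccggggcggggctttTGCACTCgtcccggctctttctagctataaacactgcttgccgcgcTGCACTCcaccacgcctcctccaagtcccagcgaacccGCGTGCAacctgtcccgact
MT1X: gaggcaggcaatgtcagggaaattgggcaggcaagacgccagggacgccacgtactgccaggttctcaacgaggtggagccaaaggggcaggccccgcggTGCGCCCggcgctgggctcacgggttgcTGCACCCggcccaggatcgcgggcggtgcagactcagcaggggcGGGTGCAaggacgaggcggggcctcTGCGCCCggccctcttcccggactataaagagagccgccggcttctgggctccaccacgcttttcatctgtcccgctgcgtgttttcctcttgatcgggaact
SLC30A1: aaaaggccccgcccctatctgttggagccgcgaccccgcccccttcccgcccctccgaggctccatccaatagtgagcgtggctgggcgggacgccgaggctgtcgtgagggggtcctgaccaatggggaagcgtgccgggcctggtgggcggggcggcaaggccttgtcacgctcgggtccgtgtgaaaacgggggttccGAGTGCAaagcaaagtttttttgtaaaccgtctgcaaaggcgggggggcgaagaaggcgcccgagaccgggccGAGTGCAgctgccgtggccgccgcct

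The MT2A window held 8 matches, 5 on the strand of the gene and 3 on the other. The MT1X window held 4, of which 3 were on the strand of the gene, and the SLC30A1 window held 2, both on the other strand. Of the 35116 RefSeq promoter windows of the same length, 29.6% held at least 1 match, 8.6% at least 2, 0.601% at least 4 and 0.0199% at least 8. SLC30A4, SLC39A6 and 1 of the 3 windows of SLC39A8 held 1 match each. The windows of SLC30A9, SLC39A7 and MTF1 held 0. In all, 9 of the 10 genes had a window in the table. A match describes these letters only, and binding was not measured.

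All 5 probe sets of the member metallothioneins carry the suffix that Affymetrix gives to sets with probes matching other transcripts as well. Most metallothionein genes lie side by side on chromosome 16 in the order MT4, MT3, MT2A, MT1L, MT1E, MT1M, MT1JP, MT1A, MT1DP, MT1CP, MT1B, MT1F, MT1G, MT1H, MT1IP and MT1X. MT1HL1, named below, is not among them. Transcripts of MT2A and the MT1 genes are much alike. A metallothionein value below is therefore a value of the probe set, which family members may share. The probe set 204326_x_at is annotated to MT1X by the platform, but the reference transcript listed for it belongs in RefSeq to MT1L, a transcribed pseudogene. The reference transcript of 208581_x_at belongs to MT1X in both.

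The arrays were close to each other within a group, with a lowest correlation over all probe sets of 0.992, against at most 0.933 between the lines, and their medians lay between 6.61 and 6.71. The 4 arrays numbered 3 held 47.2% of the residual sum of squares. Luminal prostate markers were in place in both lines. KLK3, which encodes prostate-specific antigen, lay at 12.67 to 13.14 in LnCaP and 7.74 to 9.34 in 22RV1, HOXB13 at 11.33 to 11.80 in LnCaP and 10.97 to 11.51 in 22RV1, and KRT18 at 12.51 to 12.65 in LnCaP and 12.24 to 12.89 in 22RV1. The basal keratin KRT5 stayed at 4.62 to 4.95 in LnCaP and 4.67 to 4.76 in 22RV1, and the leukocyte gene PTPRC at 4.11 to 4.33 in LnCaP and 4.09 to 4.46 in 22RV1. The fibroblast gene COL1A1 lay higher, at 7.31 to 7.5 in LnCaP and 7.35 to 7.62 in 22RV1. COL1A2, COL3A1 and DCN lay between 4.3 and 6.3 over both lines. Of the luminal marker list, 8 of 11 genes were measured; the androgen receptor was not analysed here.

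The metallothioneins bind and buffer zinc. The means of their 5 probe sets were lower with nicotine in 22RV1, where 1 of the 3 treated arrays lay far below the others, and no probe set passed the test. MT2A, the main metallothionein of most human tissues, read 10.61, 11.42 and 8.69 in nicotine-treated 22RV1 replicates 1, 2 and 3, and 11.23, 11.62 and 11.23 in untreated 22RV1. Treated replicate 2 lay within the untreated range, and replicates 1 and 3 lay below it, replicate 3 by far the lowest. In LnCaP it read 10.61, 10.96 and 11.45 with nicotine and 11.07, 11.58 and 11.50 without, and these groups overlapped.

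MT1X by 208581_x_at read 9.14, 10.14 and 7.13 in nicotine-treated 22RV1 and 10.05, 10.40 and 9.64 in untreated 22RV1. Its LnCaP values were 9.47, 9.81 and 10.48 with nicotine and 9.92, 10.59 and 10.66 without. The treated 22RV1 array numbered 3 was again the lowest of the 12, while the LnCaP arrays numbered 3 were the highest of their groups. The probe set 204326_x_at read 7.50, 8.63 and 6.13 in nicotine-treated 22RV1 and 8.78, 8.76 and 8.04 in untreated 22RV1. In LnCaP it read 8.73, 8.90 and 10.16 with nicotine and 9.18, 10.11 and 10.45 without. MT1F, another zinc-binding isoform, read 6.73, 7.41 and 5.65 by 213629_x_at in nicotine-treated 22RV1 and 7.15, 7.63 and 7.34 in untreated 22RV1. Its LnCaP values of 7.83, 7.48 and 7.67 with nicotine and 7.36, 8.0 and 7.35 without showed no common direction. The other MT1F probe set, 217165_x_at, read 8.02, 8.52 and 6.91 in nicotine-treated 22RV1 and 8.45, 8.72 and 8.33 in untreated 22RV1, with LnCaP values between 8.0 and 8.60.

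**Figure D1:**
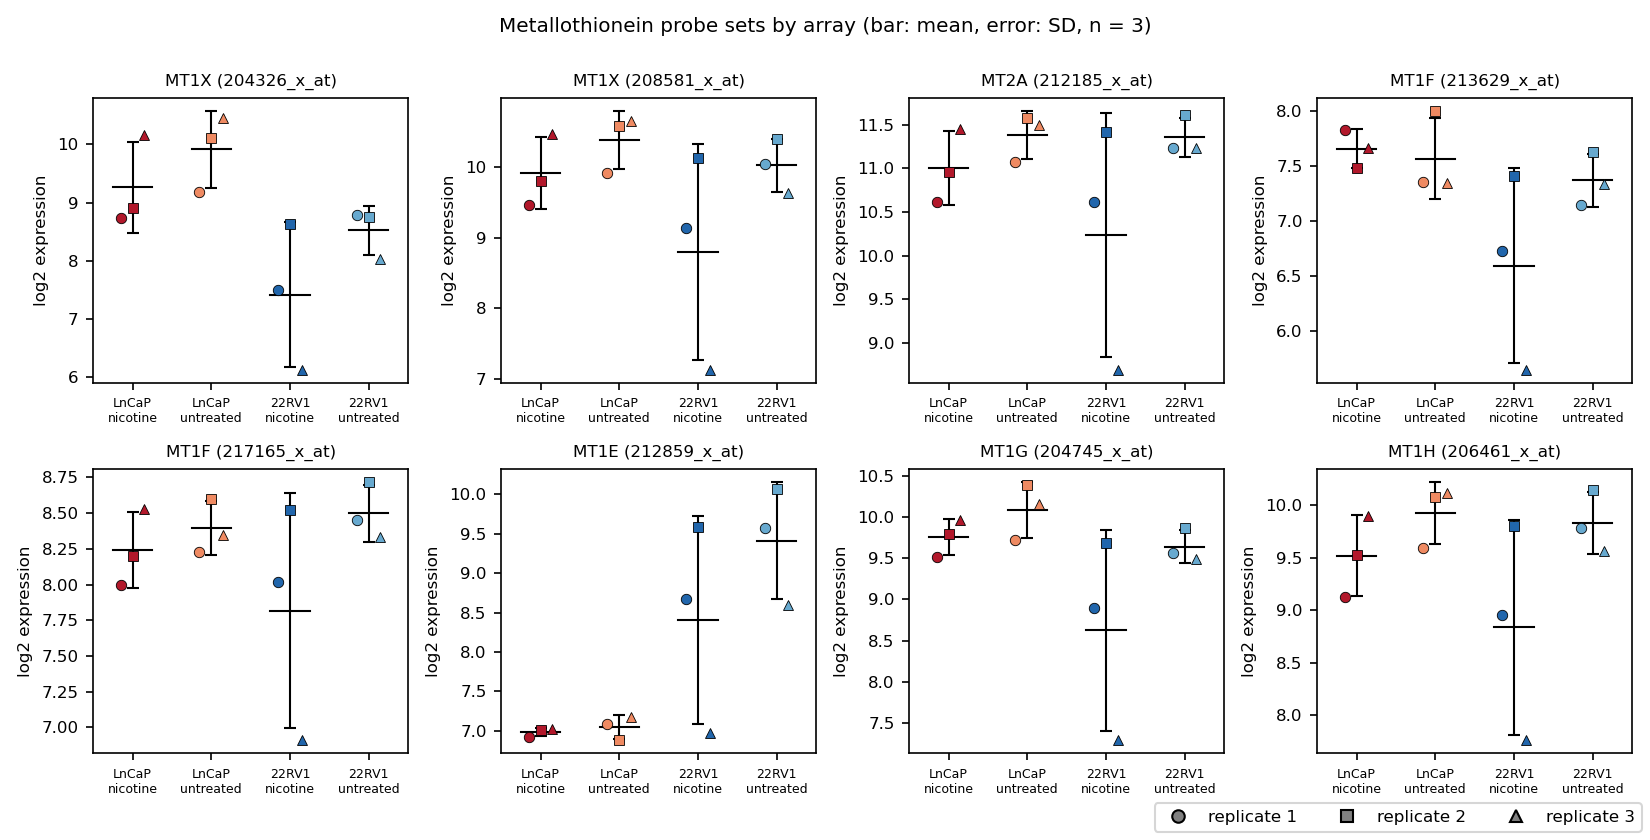
Log2 expression value of the member metallothionein probe sets and of MT1E, MT1G and MT1H on each array, by group, with the marker shape giving the replicate, the bar the group mean and the whisker the SD (n = 3). Nicotine-treated 22RV1 replicate 3 is the lowest of the 12 points for MT2A (8.69), both MT1X probe sets and both MT1F probe sets.

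The mean differences, nicotine minus untreated, in 22RV1 were -1.23 ± 0.58 (SE, n = 3 each) for MT1X by 208581_x_at and -1.12 ± 0.51 for MT2A. They were -1.11 ± 0.56 for MT1X by 204326_x_at, and -0.78 ± 0.34 and -0.68 ± 0.31 for MT1F by 213629_x_at and 217165_x_at. The limma adjusted p-values of these probe sets were 0.958 to 0.971. Of the 17 member probe sets 0 were called in 22RV1, as were 0 of all 22277 (0%). At an unadjusted p under 0.05 there were 4 members, MT2A, both MT1F probe sets and MTF1 by 205323_s_at, against 1148 of all probe sets (5.15%). The median of the 5 metallothionein probe sets was -1.11, and that of all probe sets 0. Ordered from the most negative difference of the 22277 probe sets, MT1X by 208581_x_at was at place 1, MT2A at 4, MT1X by 204326_x_at at 5, and the MT1F probe sets at 17 and 26.

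Much of the size of these differences came from nicotine-treated 22RV1 replicate 3, and their sign did not depend on it. Without it the same probe sets gave -0.46 to -0.23 with a median of -0.34, and MT1X by 208581_x_at gave -0.39 at place 262. MT2A gave -0.34 at place 413. MT1X by 204326_x_at was at place 154, and the MT1F probe sets were at 574 and 1296. Without all 4 arrays numbered 3 the differences were -0.71 to -0.31, with a median of -0.41. The shift of that array from the mean of the other nicotine-treated 22RV1 arrays was -2.51 in MT1X by 208581_x_at, the lowest such shift of all 22277 probe sets. In MT2A it was -2.33, and 4 probe sets, MT2A included, shifted as far down or farther. The shifts were -1.93 for MT1X by 204326_x_at and -1.41 and -1.36 for the MT1F probe sets. Over the other groups the array numbered 3 differed from its neighbours in MT1X by 208581_x_at by 0.84 in nicotine-treated LnCaP, 0.41 in untreated LnCaP and -0.58 in untreated 22RV1. The probe sets of MTF1 shifted on the low array by 0.03 and -0.03, and the activity of its protein was not measured. What set that array apart was not tested.

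Arrays of a line with the same replicate number were taken as pairs, as their deviations from the group means correlated. The differences were also read pair by pair. MT1X by 208581_x_at differed by -0.45, -0.78 and -0.18 in the LnCaP pairs and by -0.91, -0.26 and -2.52 in the 22RV1 pairs. MT2A differed by -0.46, -0.62 and -0.05 in LnCaP and by -0.63, -0.19 and -2.54 in 22RV1. For MT1X by 204326_x_at the pairs gave -0.46, -1.22 and -0.28 in LnCaP and -1.28, -0.13 and -1.91 in 22RV1. All of these were negative, and these 3 were the member probe sets lower in all 6 pairs, against 4.82% of all probe sets. Both MT1F probe sets were lower in the 3 pairs of 22RV1 and mixed in LnCaP. In 22RV1, 11 of the 17 members were lower in all 3 pairs, against 17% of all probe sets. Of these 11, 5 were metallothionein probe sets, which family members may share. SLC39A8 by 209267_s_at, 216504_s_at and 219869_s_at were probe sets of 1 gene. The rest were SLC30A1, SLC30A9 and SLC39A7. Neither count is thus of independent probe sets. The members were also chosen with earlier results of these data known, so these shares are no test of the list. With the pairs as a block, the 22RV1 differences of MT1X and MT2A had smaller errors (SE 0.28 to 0.35) and still were not called, with limma adjusted p-values of 0.242 to 0.312.

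In LnCaP the mean differences of the metallothioneins, nicotine minus untreated, were -0.65 ± 0.56 and -0.47 ± 0.58 for the MT1X probe sets and -0.37 ± 0.51 for MT2A (SE, n = 3 each). They were 0.09 ± 0.34 and -0.15 ± 0.31 for MT1F. Of the 17 members 0 were called in LnCaP, against 105 of all 22277 probe sets (0.471%). The difference of the nicotine effect, LnCaP minus 22RV1, was 0.45 to 0.87 for the 5 metallothionein probe sets, and 0 of the 17 members and 0 of all probe sets (0%) were called for it. At an unadjusted p under 0.05 it held 3 members, against 1355 of all probe sets (6.08%). Without nicotine-treated 22RV1 replicate 3 the metallothionein differences between the lines' effects were -0.19 to 0.40.

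**Figure D2:**
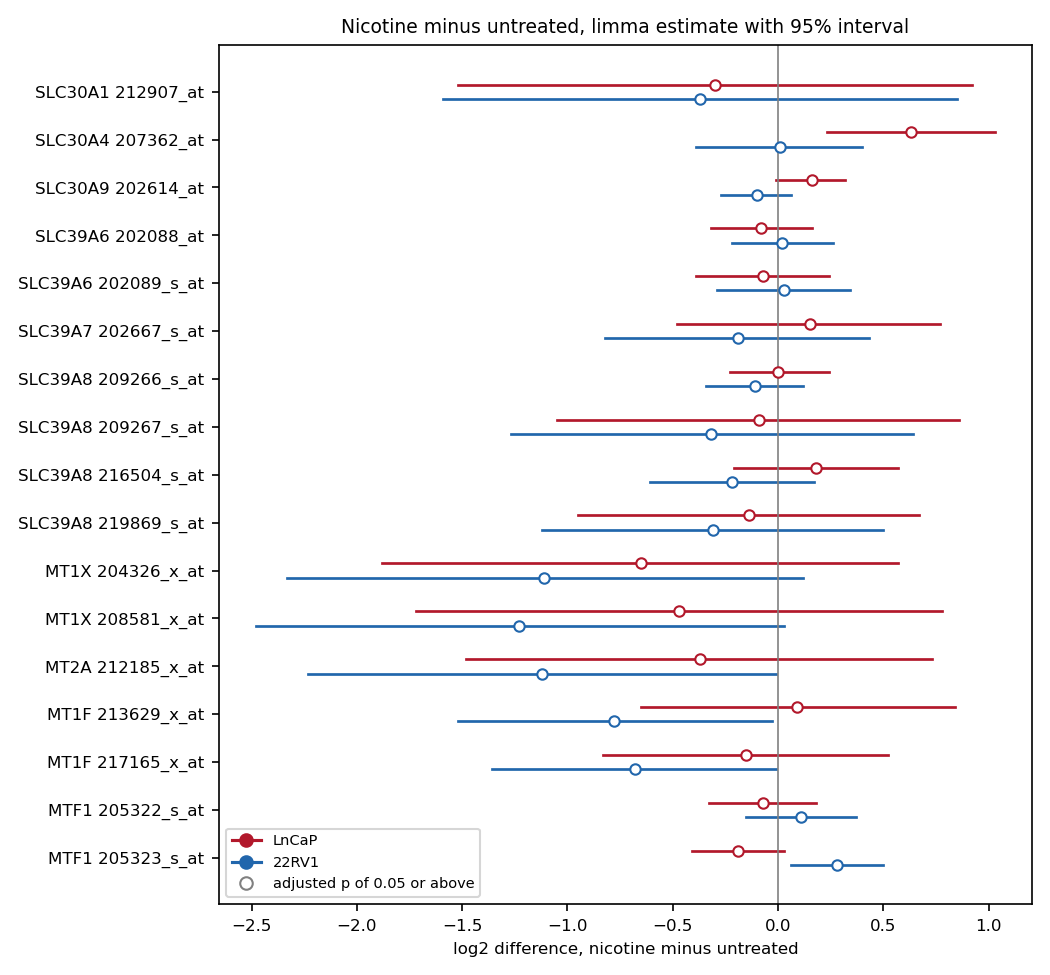
Difference in log2 expression value, nicotine minus untreated, for each member probe set in LnCaP and in 22RV1, with 95% intervals from limma. Open points have an adjusted p of 0.05 or above, and all points are open; the metallothioneins have the most negative estimates in 22RV1, down to -1.23 for MT1X, and SLC30A4 the highest in LnCaP at 0.63.

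The lines were also compared for the metallothioneins, and MT1X by 204326_x_at was called in 1 of the 2 comparisons. Among untreated cells LnCaP minus 22RV1 was 1.39 ± 0.56 (SE, n = 3 each) without overlap of the arrays, a separation upward found in 28.3% of all probe sets, yet with a limma adjusted p of 0.0651. This difference passed when any of 4 single arrays was left out: nicotine-treated LnCaP replicate 3 (limma adjusted p = 0.0498), untreated LnCaP replicate 1 (limma adjusted p = 0.0403), or nicotine-treated 22RV1 replicate 2 (limma adjusted p = 0.0299) or 3 (limma adjusted p = 0.0211). It also passed with only the untreated groups in the fit (limma adjusted p = 0.00968) and after median centring of the arrays (1.45, limma adjusted p = 0.0499). Among nicotine-treated cells LnCaP was higher by 1.84 ± 0.56 (limma adjusted p = 0.0172), and MT1F by 213629_x_at was higher by 1.06 ± 0.34 (limma adjusted p = 0.0224). The arrays of both were separated upward, as in 29.9% of all probe sets. Without nicotine-treated 22RV1 replicate 3 neither passed: the differences were 1.2 (limma adjusted p = 0.0662) and 0.59 (limma adjusted p = 0.0636). Without all 4 arrays numbered 3 they were 0.75 (limma adjusted p = 0.13) and 0.59 (limma adjusted p = 0.119). The call of MT1X by this probe set was also lost without nicotine-treated LnCaP replicate 3, at 1.39 (limma adjusted p = 0.0773). That of MT1F was lost without nicotine-treated LnCaP replicate 1, at 0.98 (limma adjusted p = 0.0694), and replicate 3, at 1.06 (limma adjusted p = 0.0519). It was also lost with only the nicotine-treated groups in the fit (limma adjusted p = 0.0519). The probe set 208581_x_at, whose transcript is MT1X in RefSeq as well, differed by 1.12 among nicotine-treated and 0.36 among untreated cells. MT2A differed by 0.77 among nicotine-treated and 0.02 among untreated cells, and none of these was called. Without nicotine-treated 22RV1 replicate 2, LnCaP was called higher among nicotine-treated cells in MT1X by 208581_x_at (1.78, limma adjusted p = 0.0136), MT2A (1.36, limma adjusted p = 0.0274) and MT1F by 217165_x_at (0.78, limma adjusted p = 0.0406).

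Of the metallothioneins outside the member list, MT1E by 212859_x_at, MT1G by 204745_x_at, MT1H and MT1HL1 were low on the same array. MT1E by 212859_x_at read 8.67, 9.58 and 6.97 in nicotine-treated 22RV1 and 9.57, 10.07 and 8.60 in untreated 22RV1. In LnCaP it stayed between 6.88 and 7.17 on all 6 arrays. MT1G by 204745_x_at read 8.90, 9.69 and 7.29 in nicotine-treated 22RV1 and 9.57, 9.87 and 9.49 in untreated 22RV1, and MT1H read 8.95, 9.80 and 7.76 in nicotine-treated 22RV1 and 9.78, 10.15 and 9.56 in untreated 22RV1. The shift of the treated array numbered 3 from its neighbours was -2.15 in MT1E by 212859_x_at, -1.61 in MT1H and -1.89 in MT1HL1. MT1M, MT3, MT4, MT1G by 210472_at and MT1E by 216336_x_at shifted on that array by -0.06, 0.09, 0.18, 0.12 and -0.18. Most of these were dim. In nicotine-treated 22RV1 the means were 3.65 for MT1M, 4.13 for MT1G by 210472_at, 4.9 for MT4 and 6.11 for MT3. A fall from such low signals may not have been readable. The mean of MT1E by 216336_x_at was 7.8.

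**Figure D3:**
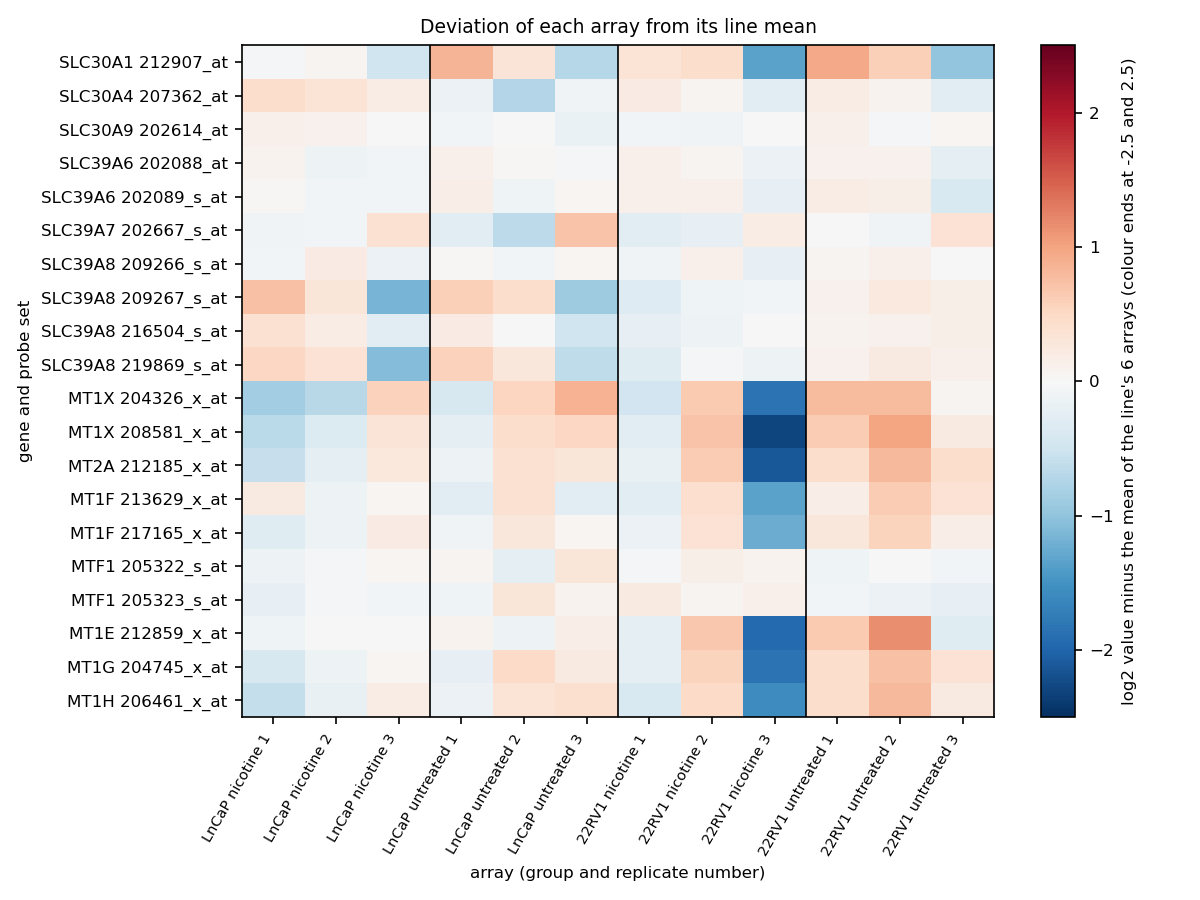
Each array's log2 value minus the mean of the 6 arrays of its line, for the member probe sets and for MT1E, MT1G and MT1H, with arrays in columns by group and replicate. The metallothionein rows share a dark low cell in nicotine-treated 22RV1 replicate 3, the SLC30A1 row is low on all 4 arrays numbered 3, and the SLC39A8 rows 209267_s_at and 219869_s_at are low on the LnCaP arrays numbered 3.

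SLC30A4, which carries zinc into vesicles and organelles, had the largest difference between the lines of the 17 member probe sets. It read 10.34, 10.25 and 10.10 in nicotine-treated LnCaP and 9.78, 9.18 and 9.84 in untreated LnCaP. In 22RV1 it read 4.10, 3.96 and 3.63 with nicotine and 4.08, 3.99 and 3.61 without. The LnCaP and 22RV1 arrays did not come near each other, and on the 22RV1 arrays 6.34% to 14.8% of all probe sets had a lower value, so how far the 22RV1 signal stood above background is not known. Nicotine-treated LnCaP was higher than nicotine-treated 22RV1 by 6.33 ± 0.18 (SE, n = 3 each; limma adjusted p = 1.14e-10). Untreated LnCaP was higher than untreated 22RV1 by 5.71 ± 0.18 (limma adjusted p = 2.36e-10). As the 22RV1 signal may be background, these differences are of array signal, and no fold of the transcript is given.

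Within LnCaP the 3 nicotine arrays of SLC30A4 lay above the 3 untreated arrays, as did those of 6.81% of all probe sets. The difference of 0.63 ± 0.18 (SE, n = 3 each; 95% interval 0.23 to 1.03) did not pass the test over all probe sets (limma adjusted p = 0.166). It was the 1 member with an unadjusted p under 0.05 in LnCaP, against 2372 of all probe sets (10.6%). The pairs differed by 0.57, 1.07 and 0.26. With the pairs as a block SLC30A4 was called higher (0.63 ± 0.13, limma adjusted p = 0.0296), the 1 member of 17 in a fit that called 847 probe sets, or 3.8% of all (1.57% higher). In 22RV1 the difference was 0.01 ± 0.18, and the difference between the lines' effects, 0.63 ± 0.26, was not called (limma adjusted p = 0.773). With the 22RV1 signal near the bottom of the array, a fall with nicotine there could not have been read, and a small rise could have been masked. No large rise was seen, with a 95% interval of -0.39 to 0.4. The comparison of the effects shares that limit of the low signal.

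SLC30A1 is the exporter of the plasma membrane and, like the metallothioneins, a target of MTF1. It read 7.92, 8.01 and 7.45 in nicotine-treated LnCaP, 8.78, 8.26 and 7.23 in untreated LnCaP, 8.74, 8.81 and 7.05 in nicotine-treated 22RV1, and 9.33, 8.98 and 7.39 in untreated 22RV1. The array numbered 3 was the lowest of its group in each of the 4 groups. Its shift from the mean of the other arrays was -0.51 in nicotine-treated LnCaP and -1.30 in untreated LnCaP. In nicotine-treated 22RV1 it was -1.73, where 13 of the 22277 probe sets, SLC30A1 included, shifted as far down or farther, and in untreated 22RV1 it was -1.76, where 5 did. In untreated 22RV1 the array numbered 3 was also lower than its neighbours in MT1X, by smaller shifts of -0.73 for 204326_x_at and -0.58 for 208581_x_at. In nicotine-treated 22RV1 these shifts were -1.93 and -2.51. In LnCaP they were positive, at 1.35 and 0.84 with nicotine and 0.8 and 0.41 without, where SLC30A1 shifted down.

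With that spread, nicotine minus untreated SLC30A1 was -0.30 ± 0.56 in LnCaP and -0.37 ± 0.56 in 22RV1 (SE, n = 3 each), and neither was called. Both 22RV1 arrays numbered 3 were low, and the 22RV1 value was 0.21 without nicotine-treated replicate 3 and -0.95 without untreated replicate 3, neither called. Over the alternatives run the LnCaP value ranged from -0.73 to 0.05. The LnCaP pairs gave -0.86, -0.25 and 0.22, and the 22RV1 pairs -0.59, -0.17 and -0.35. Untreated LnCaP differed from untreated 22RV1 by -0.47 ± 0.56 and was not called (limma adjusted p = 0.546). Without the arrays numbered 3 LnCaP was lower, at -0.81 among nicotine-treated cells (limma adjusted p = 0.00425) and -0.63 among untreated cells (limma adjusted p = 0.0164).

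SLC30A9, a transporter linked to mitochondrial zinc export, varied least between arrays among the exporters. It read 9.98, 9.96 and 9.85 in nicotine-treated LnCaP and 9.78, 9.84 and 9.69 in untreated LnCaP. In 22RV1 it read 9.65, 9.63 and 9.70 with nicotine and 9.85, 9.69 and 9.76 without. The LnCaP pairs differed by 0.20, 0.12 and 0.16 and the 22RV1 pairs by -0.19, -0.06 and -0.05. Neither mean difference, 0.16 ± 0.08 in LnCaP and -0.10 ± 0.08 in 22RV1, was called, and nor was the difference between them (0.26 ± 0.11, limma adjusted p = 0.774). Nicotine-treated LnCaP was higher than nicotine-treated 22RV1 by 0.26 ± 0.08 (limma adjusted p = 0.0121), and the 95% interval of the difference among untreated cells was -0.16 to 0.17.

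**Figure D4:**
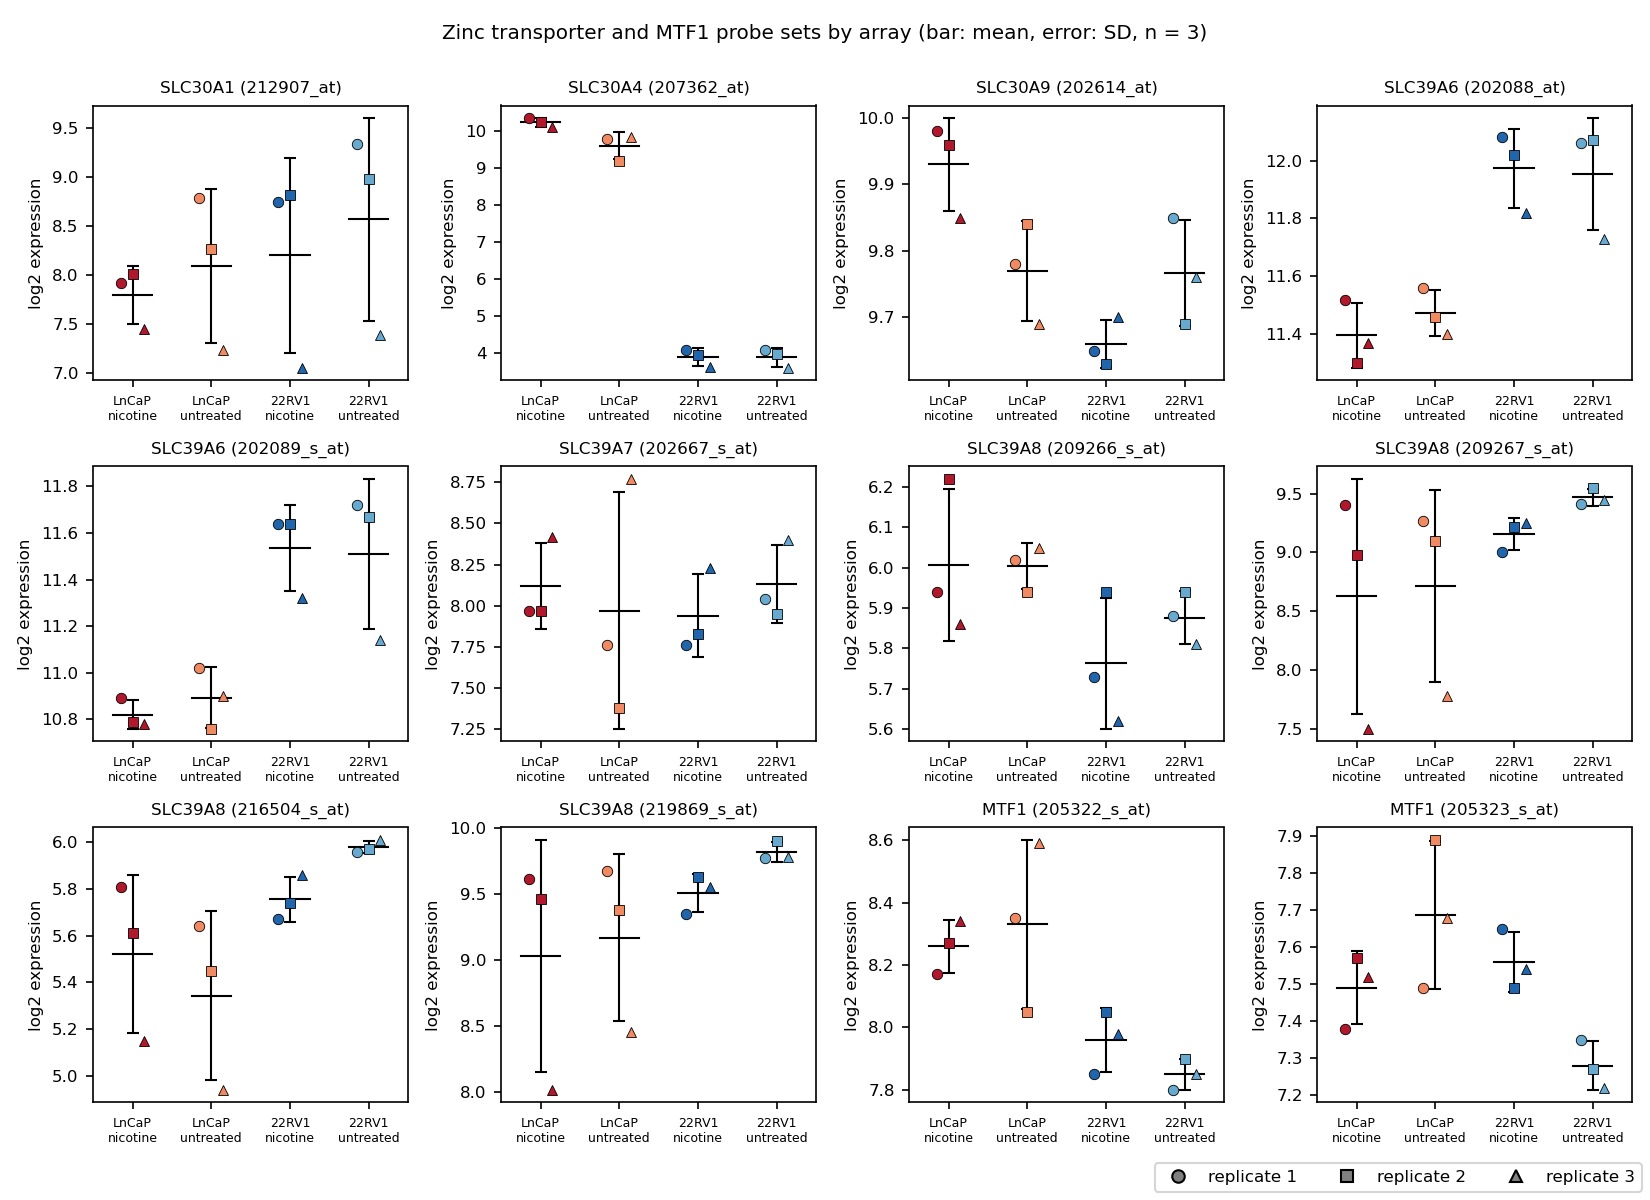
Log2 expression value of each probe set of the transporters and MTF1 on each array, by group, with the marker shape giving the replicate, the bar the group mean and the whisker the SD (n = 3). SLC30A4 sits at 9.18 to 10.34 in LnCaP and 3.61 to 4.10 in 22RV1, and SLC30A1 has its lowest point of each group at replicate 3.

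Among the importers, SLC39A6 was lower in LnCaP by both of its probe sets. SLC39A6 (LIV-1), known as an estrogen-regulated importer of breast cancer cells, read 11.52, 11.30 and 11.37 by 202088_at in nicotine-treated LnCaP and 11.56, 11.46 and 11.40 in untreated LnCaP. In 22RV1 this probe set read 12.08, 12.02 and 11.82 with nicotine and 12.06, 12.07 and 11.73 without. No LnCaP array reached a 22RV1 array; LnCaP lay below 22RV1 without overlap in 25.9% of all probe sets among nicotine-treated and 24% among untreated cells. The probe set 202089_s_at lay between 10.76 and 11.02 in LnCaP and between 11.14 and 11.72 in 22RV1. Among nicotine-treated cells LnCaP was lower, with differences of -0.58 ± 0.11 (limma adjusted p = 0.000831) and -0.72 ± 0.14 (limma adjusted p = 0.00133). Among untreated cells the differences were -0.48 ± 0.11 (limma adjusted p = 0.00333) and -0.62 ± 0.14 (limma adjusted p = 0.00396). Nicotine effects were small in both lines, between -0.08 and 0.03, with 95% intervals inside -0.39 to 0.34.

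SLC39A8 (ZIP8), an importer of the plasma membrane and lysosome, had 4 probe sets that did not read alike. By 219869_s_at it read 9.61, 9.46 and 8.02 in nicotine-treated LnCaP and 9.67, 9.38 and 8.46 in untreated LnCaP. In 22RV1 it read 9.35, 9.63 and 9.55 with nicotine and 9.77, 9.90 and 9.78 without. The LnCaP arrays numbered 3 were low, with shifts of -1.52 with nicotine and -1.07 without, and those of 22RV1 were not, at 0.05 and -0.05. The probe set 209267_s_at showed the same picture, with 7.50 and 7.78 on the LnCaP arrays numbered 3 and 8.98 to 9.40 on the other LnCaP arrays.

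In 22RV1 the nicotine arrays lay below the untreated arrays in 3 of the 4 SLC39A8 probe sets, against 5.84% of all probe sets. The differences were -0.32 ± 0.44 by 209267_s_at, -0.31 ± 0.37 by 219869_s_at and -0.22 ± 0.18 by 216504_s_at (SE, n = 3 each), and none was called. The 22RV1 pairs of 219869_s_at gave -0.41, -0.27 and -0.24. The dim probe set 216504_s_at went the other way in LnCaP, with pairs of 0.17, 0.17 and 0.21 against -0.29, -0.24 and -0.14 in 22RV1; the difference between the effects was not called (limma adjusted p = 0.902). Among untreated cells this probe set was lower in LnCaP, by -0.64 ± 0.18 (limma adjusted p = 0.0113). It read 5.64, 5.45 and 4.94 in untreated LnCaP and 5.96, 5.97 and 6.01 in untreated 22RV1. For 219869_s_at the difference between the untreated lines was -0.65 and of the alternatives run it passed in 1, without nicotine-treated LnCaP replicate 3 (limma adjusted p = 0.0467). The fourth probe set, 209266_s_at, stayed between 5.62 and 6.22 on all arrays. Among nicotine-treated cells its line difference of 0.24 was not called (limma adjusted p = 0.0907), but it was without nicotine-treated LnCaP replicate 3 (0.31, limma adjusted p = 0.049) or 22RV1 replicate 2 (0.33, limma adjusted p = 0.0347). Median centring of the arrays also gave a call (0.3, limma adjusted p = 0.0283).

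SLC39A7 (ZIP7) releases zinc from the endoplasmic reticulum and Golgi. It read 7.97, 7.97 and 8.42 in nicotine-treated LnCaP and 7.76, 7.38 and 8.77 in untreated LnCaP. In 22RV1 it read 7.76, 7.83 and 8.23 with nicotine and 8.04, 7.95 and 8.40 without. The array numbered 3 was the highest of every group, the opposite of SLC30A1. The nicotine differences of 0.15 ± 0.29 in LnCaP and -0.19 ± 0.29 in 22RV1 were not called, and the LnCaP pairs of 0.21, 0.59 and -0.35 differed in sign. Without the arrays numbered 3 untreated LnCaP was lower than untreated 22RV1, by -0.43 (limma adjusted p = 0.0206), and without untreated LnCaP replicate 3 alone by -0.56 (limma adjusted p = 0.0413). With all arrays the difference was -0.16 and was not called.

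MTF1, the transcription factor that senses zinc, was higher in untreated LnCaP than in untreated 22RV1 by both probe sets. By 205322_s_at it read 8.17, 8.27 and 8.34 in nicotine-treated LnCaP and 8.35, 8.05 and 8.59 in untreated LnCaP. In 22RV1 it read 7.85, 8.05 and 7.98 with nicotine and 7.80, 7.90 and 7.85 without. By 205323_s_at it read 7.38, 7.57 and 7.52 in nicotine-treated LnCaP, 7.49, 7.89 and 7.68 in untreated LnCaP, 7.65, 7.49 and 7.54 in nicotine-treated 22RV1, and 7.35, 7.27 and 7.22 in untreated 22RV1. Untreated LnCaP was higher by 0.48 ± 0.12 (limma adjusted p = 0.0054) and 0.40 ± 0.10 (limma adjusted p = 0.00602). The call of 205323_s_at was lost without the arrays numbered 3, at 0.38 (limma adjusted p = 0.0544). Among nicotine-treated cells the differences were 0.30 ± 0.12 (limma adjusted p = 0.06) and -0.07 ± 0.10, and neither was called; with the replicate number as a block the 0.30 was called (limma adjusted p = 0.0487), along with 50.6% of all probe sets. It was also called without untreated LnCaP replicate 2 (limma adjusted p = 0.0194) or 3 (limma adjusted p = 0.0247). It passed after median centring of the arrays (0.36, limma adjusted p = 0.0275) and after quantile normalization (0.33, limma adjusted p = 0.042). Array weights (limma adjusted p = 0.0352), dim probe sets left out (limma adjusted p = 0.0453) and only the nicotine-treated groups in the fit (limma adjusted p = 0.0303) gave a call as well. In the other alternatives run it was not called.

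The nicotine differences of MTF1 by 205323_s_at ran in opposite directions in the lines. In LnCaP the pairs gave -0.11, -0.31 and -0.15, with a mean of -0.19 ± 0.10 (limma adjusted p = 0.574). In 22RV1 the treated arrays all lay above the untreated ones, with pairs of 0.30, 0.22 and 0.32 and a mean of 0.28 ± 0.10 (SE, n = 3 each), which did not pass the test (limma adjusted p = 0.882). Groups were separated upward in 5.49% of all probe sets. The difference between the effects, -0.47 ± 0.14, was not called (limma adjusted p = 0.658), nor with the pairs as a block (limma adjusted p = 0.124), which called 0.247% of all probe sets. MTF1 by this probe set, SLC30A9 and SLC39A8 by 216504_s_at were the 3 members with opposite signs in the 3 pairs of each line, against 4.91% of all probe sets. The other MTF1 probe set differed by -0.07 ± 0.12 in LnCaP and 0.11 ± 0.12 in 22RV1.

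Between the lines, 6 of the 17 members were called among nicotine-treated cells, 4 higher and 2 lower in LnCaP, against 46.2% of all probe sets (23.8% higher and 22.4% lower). Among untreated cells 6 were called, 3 higher and 3 lower, against 43.7% of all probe sets (22.8% higher and 20.9% lower). SLC30A4 and both SLC39A6 probe sets were called in both comparisons. These compare different arrays but share a fit and its estimate of the spread. The median difference over the members was 0.24 among nicotine-treated and 0.01 among untreated cells, beside 0.05 and 0.04 over all probe sets.

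**Figure D5:**
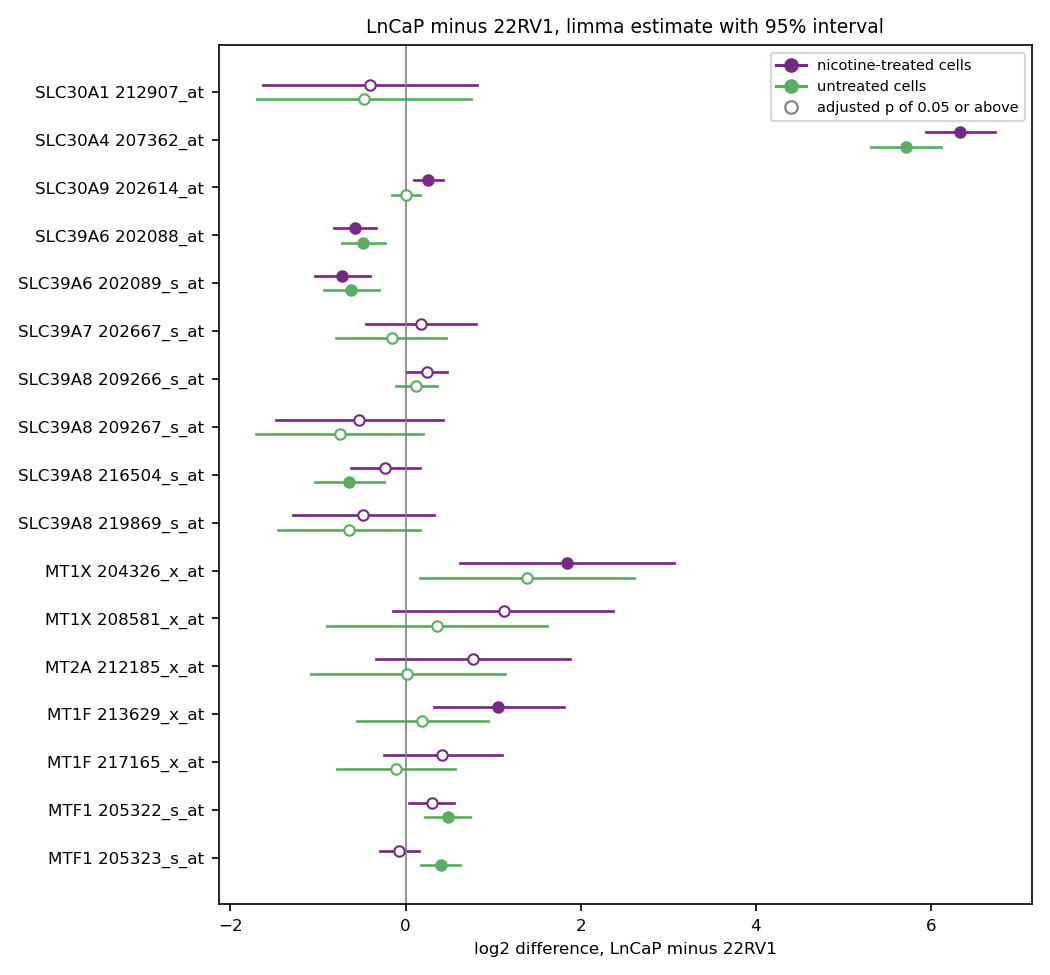
Difference in log2 expression value, LnCaP minus 22RV1, for each member probe set among nicotine-treated and among untreated cells, with 95% intervals from limma; filled points have an adjusted p under 0.05. SLC30A4 stands at 6.33 and 5.71, and SLC39A6 is below 0 in both comparisons.

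Of 29 other SLC30, SLC39 and metallothionein genes looked for, 16 were measured by 21 probe sets, and 0 of the 21 were called for nicotine in either line, with limma's test. At an unadjusted p under 0.05 there were 0 in LnCaP, against 10.6% of all probe sets, and 3 in 22RV1, against 5.15%. The smallest p-values in 22RV1 belonged to MT4 (-0.26 ± 0.09, limma adjusted p = 0.85), MT1H (-0.99 ± 0.40, limma adjusted p = 0.936) and MT1G by 204745_x_at (-1.01 ± 0.44, limma adjusted p = 0.958). In LnCaP they belonged to SLC39A9 by 217859_s_at (0.21 ± 0.13, limma adjusted p = 0.674) and SLC39A4 (-0.18 ± 0.12, limma adjusted p = 0.712).

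Between the untreated lines 6 of these 21 probe sets (28.6%) were called, 3 in each direction, a smaller share than the 43.7% of all probe sets. LnCaP was lower in MT1E by 212859_x_at, at -2.36 ± 0.51 (limma adjusted p = 0.00239), and in the plasma membrane importer SLC39A1, at -0.81 ± 0.11 (limma adjusted p = 7.85e-05). LnCaP was higher in SLC39A9 by 217859_s_at, at 1.22 ± 0.13 (limma adjusted p = 9.46e-06), and in SLC39A4, the importer mutated in acrodermatitis enteropathica, at 0.49 ± 0.12 (limma adjusted p = 0.00566). Among nicotine-treated cells 6 of the 21 (28.6%) were called, 3 in each direction, against 46.2% of all probe sets. LnCaP was again higher in SLC39A9 by 217859_s_at (1.34, limma adjusted p = 3.8e-06) and SLC39A4 (0.47, limma adjusted p = 0.00726). It was again lower in SLC39A1 (-0.75, limma adjusted p = 0.000135). LnCaP was also lower in MT1E by 212859_x_at, at -1.42 (limma adjusted p = 0.0388), although its low 22RV1 array overlapped the LnCaP values.

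Genes outside the zinc families whose array-to-array pattern was most like that of MT1X by 208581_x_at were DGKG, OGFOD3, CYP4F8, RIOK2 and TBCB. Their correlations over the 12 arrays, after subtracting the mean of each line, were 0.937, 0.937, 0.930, 0.929 and 0.928. Without nicotine-treated 22RV1 replicate 3 they were 0.790, 0.812, 0.885, 0.760 and 0.794. For SLC30A1 the most alike were SYTL2, COMMD10, PPP3CA, FZD9 and ZBTB39, at 0.958, 0.949, 0.945, 0.942 and 0.926. Without the arrays numbered 3 these were 0.733, 0.695, 0.534, 0.663 and 0.599. The points share arrays and normalization, and the genes were picked as the highest of the table.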

How the data were processed

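Labelled RNA of 12 samples was hybridised to Affymetrix arrays, per the labels' protocols. The values are on the log2 scale, as the authors deposited them for 22277 probe sets, and were used without a filter. How they were normalized, and with what software, is not given in the sources used here. Gene names come from the annotation of the platform: 19070 had 1 gene symbol, 1043 several and 2164 none. No probe set annotated to several genes included a member. Precision is limited by the number of arrays; the SE of a nicotine effect had a median of 0.11.

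The fit used lmFit and eBayes of limma 3.58.1 (R 4.3.3) on all 12 arrays, with the means of the 4 groups and no covariate. Each SE of this fit draws on the spread within all 4 groups. The contrasts were nicotine in each line, the difference of these effects, and LnCaP minus 22RV1 among untreated and among nicotine-treated cells. The tests were two-sided and were checked on simulated data. The replicate numbers come from the labels. Deviations of same-numbered arrays from their group means correlated at 0.358, 0.179 and 0.554 in LnCaP and 0.445, 0.424 and 0.626 in 22RV1. All were over 0.1, so same-numbered arrays of a line were read as pairs and used as a block in an alternative fit. The main fit did not use the pairs. Alternatives were a block for the pairs, other filters, scalings and weights, and arrays left out.

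Every probe set of a member was named. Of the other zinc genes up to 4 per contrast were named, by size among called probe sets or else by smallest p. The likeness rule took the 5 highest correlations outside the zinc lists. The members and lists were chosen with earlier results of these data known.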

Additional observations from a re-analysis of the deposited data

How the results depend on the processing

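With 3 arrays a group, the metallothioneins and SLC30A1 had standard errors of 0.31 to 0.58 for a nicotine effect, which limits what could be detected for them. The replicate block raised the number of members called for nicotine in LnCaP to 1, SLC30A4, against 0 without it, and the calls over all probe sets there to 847, against 105. It also made the call of MTF1 by 205322_s_at among nicotine-treated lines, and it changed no other call of a member. With 1 probe set a gene, 3 of 10 members were called in each comparison of the lines, against 6 of 17 probe sets; of all 11963 genes 5973 were called between the nicotine-treated and 5719 between the untreated lines. At an adjusted p under 0.01 there were 3 of 17 among nicotine-treated lines, against 7972 of all 22277 probe sets. Leaving out 1 array at a time gave 0 to 0 members for nicotine in 22RV1, nicotine in LnCaP and the difference of the effects, 6 to 8 for the untreated lines, and 4 to 10 for the nicotine-treated lines. The 10 came without nicotine-treated 22RV1 replicate 2, where 9171 of all 22277 probe sets were called. The 4 came without replicate 3, where 9759 were called. With 1 array left out, 8604 to 9911 of all probe sets were called between the untreated lines. Between the nicotine-treated lines 9167 to 10412 were called. Over all probe sets the count for nicotine in LnCaP was 2 with only the groups compared and 1 to 134 with 1 array left out; it was 165 with array weights, 177 without dim probe sets and 1 at an adjusted p under 0.01. For nicotine in 22RV1 it was 8 with array weights. For the difference of the effects it was 55 with the block and 10 without the arrays numbered 3. Of 1740 single values, 1705 kept their side of the threshold, 9 lost their call and 26 gained one. No called value changed sign, and 80 uncalled ones did. The causes were not tested.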
